A study of Mus musculus with 3 samples.

Results

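Nuclear ribosomal RNA (rRNA) fragments were examined in small RNA libraries of mouse sperm, testis and uterus. A read was a member if its whole length matched, in sense and without a substitution, a nuclear gene that GENCODE gives the biotype rRNA, or one of the rRNA-like genes Gm42418, AY036118 and Gm26917. The annotation held 357 such genes, of which 172 had a matching read in at least 1 library. Member reads numbered 174015 of 15690722 in sperm, 7391 of 23783785 in testis and 332044 of 15876066 in uterus. By distinct sequence, sperm had 12518 of 1302963, testis 2722 of 2592365 and uterus 13232 of 526203.

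All 3 groups were CD1 mice, an outbred laboratory strain, with no treatment or allele named. The sperm were mature, came from the cauda epididymis and had been exposed to a lysis buffer that destroys somatic cells. Testis and uterus were tissues of adult animals, and the labels name neither the number of animals nor any pooling. With a single library per group, the differences below could not be set against replicates, and none was tested. The 95% intervals speak of counting error alone, as PCR copies are not independent molecules. In tissues, fewer cells of a type and less RNA per cell cannot be told apart.

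The ribosome carries 1 rRNA, 18S, in its small subunit and 5S, 5.8S and 28S in its large subunit. RNA polymerase I makes 18S, 5.8S and 28S as one long precursor, in which external and internal transcribed spacers flank the mature RNAs and are cut away in the nucleolus. RNA polymerase III makes 5S from separate gene clusters. During spermatid elongation most of the cytoplasm and its ribosomes are shed, and mature sperm are known to hold little intact rRNA.

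The annotated genes cover these RNAs unevenly. Gm42418, on chromosome 17 of GRCm38 (39846958 to 39848788, plus strand, annotated as a lincRNA of 1831 bases), holds bases 606 to 1849 of an 18S sequence followed by 587 bases of the first internal transcribed spacer (ITS1). The RefSeq gene table for GRCm38.p6 lists this 18S copy as the pseudogene Rn18s-rs5. Gm26917 (chromosome 17, 39843013 to 39846341, plus strand) ends just before the same 18S sequence and so lies, by position, in the external spacer. CT010467.1 (biotype rRNA) and AY036118 lie on the opposite strand, and their reads are antisense to 18S. The 5S type had 351 genes, and 5S positions below are on the 5S gene with most reads, Gm22109 (chromosome 8, 123606613 to 123606731, minus strand, 119 bases), whose sequence 32 genes share. The type 5.8S had 2 genes. Mature 28S and bases 1 to 605 of 18S are in none of the member genes. All 18S positions count from base 1 at the 5′ end of the 18S sequence of 1849 bases, taken as the reverse complement of CT010467.1.

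Leading fragments of each library show where the reads lie on the rRNAs, and are given in the letters of the deposited reads (T for U). The 5S fragments shown lie in the middle of the RNA.
Testis 5S, bases 38 to 63: tctgatctcggaagctaagcagggtc
Uterus 5S, bases 37 to 58: gtctgatctcggaagctaagca

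In the 18S fragments from Gm42418, capitals mark the last 9 bases of mature 18S where a fragment reaches them.
Sperm 18S, bases 1774 to 1800: cggtcgaacttgactatctagaggaag
Sperm 18S, bases 898 to 918: gttggttttcggaactgaggc
Testis 18S, bases 1025 to 1050: tcattaatcaagaacgaaagtcggag
Testis 18S, bases 1824 to 1849: taggtgaacctgcggaaGGATCATTA
Uterus 18S, bases 1825 to 1849: aggtgaacctgcggaaGGATCATTA

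A further fragment led the sperm library once the annotated letters of 18S were replaced by those that the reads carry, as described further on. A capital marks the replaced letter.
Sperm 18S, bases 1035 to 1063: agaacgaaagtcggagGttcgaagacgat

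Nuclear rRNA fragments were 1.11% of all reads in sperm (1.10 to 1.11%, exact Clopper-Pearson interval), 0.0311% in testis (0.0304 to 0.0318%) and 2.09% in uterus (2.08 to 2.10%). In reads per 1000000 reads (RPM) this was 11090.3 in sperm, 311 in testis and 20915 in uterus. The testis library thus held the fewest rRNA fragments per read, 35.7 times fewer than sperm (34.9 to 36.5) and 67.3 times fewer than uterus (65.8 to 68.9).

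The 18S-bearing gene Gm42418 supplied most of these reads in every library. It had 133217 reads in sperm (8490.2 RPM), 6080 in testis (256 RPM) and 320569 in uterus (20192 RPM), which were 76.6%, 82.3% and 96.5% of the nuclear rRNA reads. Of these, 132485, 6031 and 317893 lay wholly within the 18S part. 5S had 39842 reads in sperm (2539 RPM), 1181 in testis (49.7 RPM) and 5434 in uterus (342 RPM). The makeup of the rRNA fragments therefore differed in 5S, which was 22.9% of them in sperm (22.7 to 23.1%), 16.0% in testis (15.2 to 16.8%) and 1.64% in uterus (1.59 to 1.68%).

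Per 1000000 reads, Gm42418 was higher in uterus than in sperm, while 5S was higher in sperm than in uterus. The sperm to uterus ratio was 0.420 for Gm42418 (0.418 to 0.423, conditional exact binomial interval) and 7.42 for 5S (7.21 to 7.63). Against testis, sperm was 33.2 times higher in Gm42418 (32.4 to 34.1) and 51.1 times higher in 5S (48.3 to 54.2). Per length of RNA, sperm held 2134 RPM of 5S and 679 RPM of the 18S part per 100 bases, and testis held 41.7 and 20.4. In uterus the order was the other way round, with 288 RPM of 5S and 1610 RPM of the 18S part per 100 bases.

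**Figure D1:**
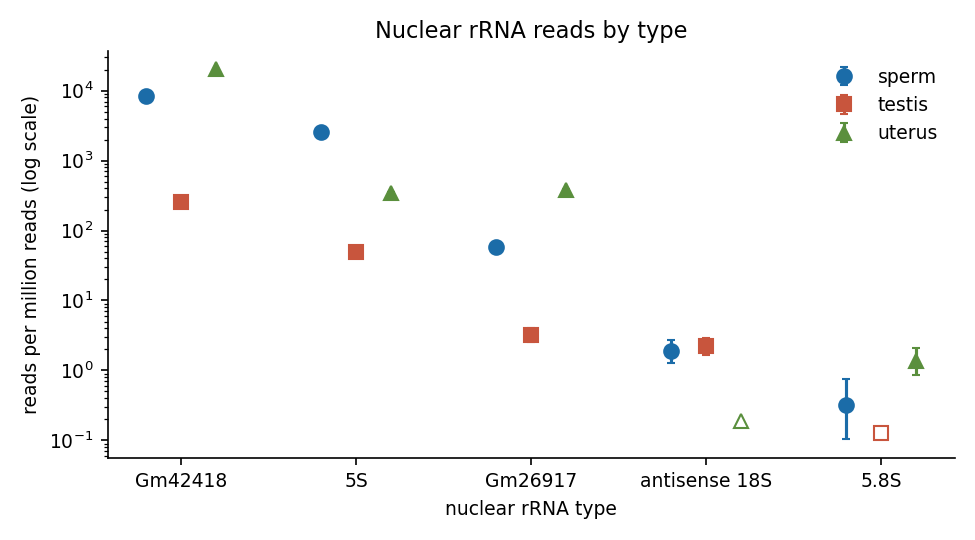
Reads per 1000000 reads (log axis) of each nuclear rRNA type in the sperm, testis and uterus libraries, 1 library each; bars are exact Poisson 95% intervals and open symbols stand for 0 reads, drawn at the level of 3 counts. Uterus leads for Gm42418 (20192) and sperm for 5S (2539), while antisense 18S and 5.8S lie below 3 reads per 1000000.

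These ratios depend on what the reads are set against. Reads that match an annotated structured RNA gene (rRNA, microRNA, small nucleolar, small nuclear and related RNAs) were 5.65% of sperm, 1.13% of testis and 68.6% of uterus reads, and 21058426 of the testis reads were of 26 to 31 nt, the length of piRNAs. Nuclear tRNA genes are not in this set, and the share of their fragments in each library was not measured here. Nuclear rRNA was 19.6% of this structured RNA in sperm, 2.74% in testis and 3.05% in uterus. On that scale sperm was 7.15 times higher than testis and 6.44 times higher than uterus, so that the order of sperm and uterus turned, for Gm42418 as well (5.11). With DESeq2 size factors over structured RNA genes the sperm to testis ratio was 1.02 (0.993 to 1.04). Those factors, set by the median gene, take out a 35.1-fold (log2 5.13) shift, against 4.99-fold for structured RNA reads as a whole. The rRNA genes are among the genes that set them. 5S stayed higher in sperm than in uterus on each of these scales, by 90.1 times per structured RNA read, 3.497 times with edgeR's TMM factors and 1.40 times with DESeq2's. 5S was also higher in sperm than in testis on each, down to 1.46 times with DESeq2 size factors, where Gm42418 turned to 0.946. Uterus was 6.89 times higher than testis in 5S per 1000000 reads (6.47 to 7.35), but the ratio turned to 0.887 with TMM factors and to 0.114 per structured RNA read.

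Counted gene by gene, 63 nuclear rRNA genes had at least 100 reads in sperm or testis, and all 63 were at least 4-fold higher per 1000000 reads in sperm. Of all 729 structured RNA genes with as many reads, 76.0% were as far above testis in sperm and 8.64% as far above sperm in testis. Between sperm and uterus, 18 of 74 rRNA genes were at least 4-fold up in sperm and 7 at least 4-fold up in uterus, beside 50.3% and 22.5% of 792 structured RNA genes. Between uterus and testis, 69 of 71 were at least 4-fold higher in uterus and 0 in testis, beside 69.6% and 20.3% of 487. The minimum of 100 reads was asked of the higher library only, for rRNA genes and the others alike. Many genes thus entered through the library in which they were then higher, as did Gm24573, with 1869 reads in sperm and 8 in testis. The counts of rRNA genes moved with the scaling, as did those of all structured RNA genes. Per structured RNA read, 53 of 63 rRNA genes were as far up in sperm and 0 in testis, beside 59.5% and 17.6% of all. On that scale 65 of 74 were up in sperm and 0 in uterus, beside 75.9% and 10.1%, and 4 of 71 were up in uterus and 27 in testis, beside 9.65% and 46.6%. With TMM factors the counts were 30 and 0 for sperm and testis (all genes 42.8% and 24.1%), 8 and 13 for sperm and uterus (40.5% and 26.9%), and 37 and 1 for uterus and testis (42.9% and 27.1%). With DESeq2 size factors they were 16 and 3 for sperm and testis (33.9% and 30.0%), 0 and 33 for sperm and uterus (33.1% and 31.9%), and 39 and 0 for uterus and testis (45.0% and 26.7%). The direction between sperm and uterus, and between uterus and testis, thus depended on the scaling.

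The rRNA genes are not independent in these counts, since nearly all are 5S copies that share reads. The sequence of Gm22109 matched 98.4% of sperm, 93.9% of testis and 97.4% of uterus 5S reads. In addition, 52.8%, 59.9% and 78.9% of 5S reads also matched a GENCODE transcript of a gene of another kind, so a 5S copy inside such a transcript cannot be told apart from a 5S gene. Without every rRNA read that also matched another gene, rRNA was 0.975% of sperm, 0.0281% of testis and 2.06% of uterus reads.

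The lengths of the fragments differed between the libraries. The most frequent length of a rRNA read was 27 nt in sperm, 26 nt in testis and 22 nt in uterus, and the median was 29, 27 and 23 nt. Sperm fragments were spread over the whole range, with 28.3% of 18 to 24 nt, 19.1% of 25 to 28 nt, 23.2% of 29 to 34 nt and 29.4% of 35 to 44 nt. Testis fragments fell mostly at 25 to 28 nt (39.3%) and 29 to 34 nt (35.3%). Uterus fragments were short, with 68.6% at 18 to 24 nt and 2.10% at 29 to 34 nt.

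5S fragments had sharper lengths than 18S fragments. In sperm 14.7% of 5S reads were 39 nt long, and in testis 21.2% were 34 nt long. In uterus the most frequent 5S length was 19 nt, with 12.9%. Gm42418 reads had no length above 11.3% in any library, their most frequent lengths being 27 nt in sperm (6.31%), 26 nt in testis (11.3%) and 22 nt in uterus (11.3%).

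**Figure D2:**
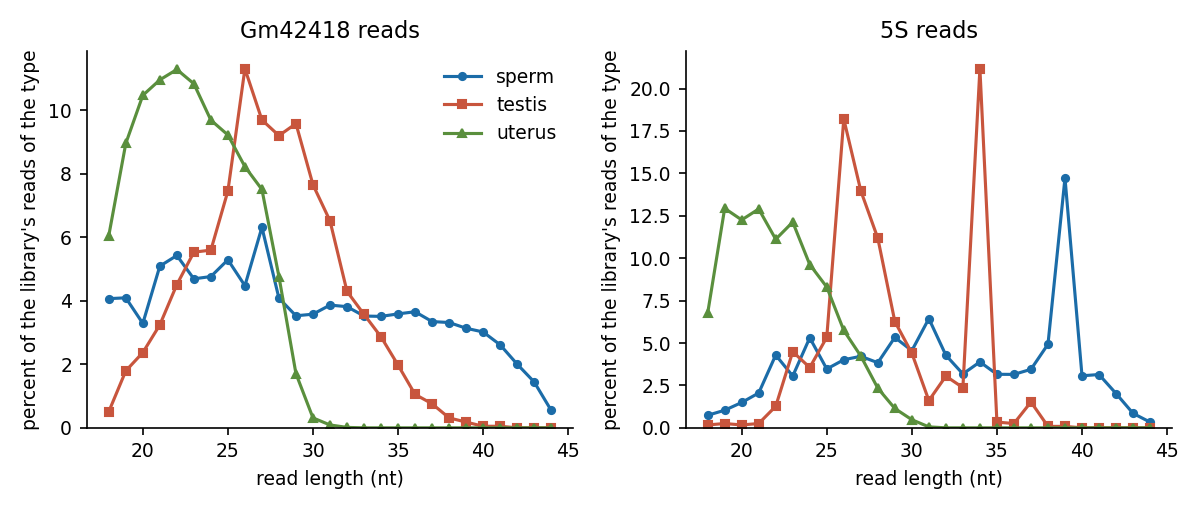
Length of Gm42418 reads (left) and 5S reads (right) in each library, as percent of that library's reads of the type against read length in nt. The 5S panel has single tall lengths at 39 nt in sperm (14.7%) and 34 nt in testis (21.2%), while uterus reads of both types lie at short lengths.

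The length range of each library as a whole bears on these profiles, so each length class was also set against all reads of that length. At 18 to 24 nt, rRNA was 3.07% of sperm reads (3.04 to 3.09%), 0.320% of testis reads (0.305 to 0.336%) and 1.53% of uterus reads (1.53 to 1.54%). In this class sperm was above uterus, with a ratio of 2.00, which is the opposite of the order over all lengths. At 25 to 28 nt rRNA was 2.52% of sperm, 0.0672% of testis and 10.3% of uterus reads. At 29 to 34 nt it was 0.372% of sperm, 0.0138% of testis and 10.3% of uterus reads. Sperm and testis hold most of their reads at 29 to 34 nt (69.0% and 79.5%), whereas uterus has 93.6% at 18 to 24 nt, so the uterus shares at longer lengths rest on few reads: 944154 reads of 25 to 28 nt and 67853 of 29 to 34 nt. At 35 to 44 nt rRNA was 2.64% of sperm and 0.545% of testis reads, and none of the 225 uterus reads of that length matched, for which the exact interval reaches 1.63%.

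**Figure D3:**
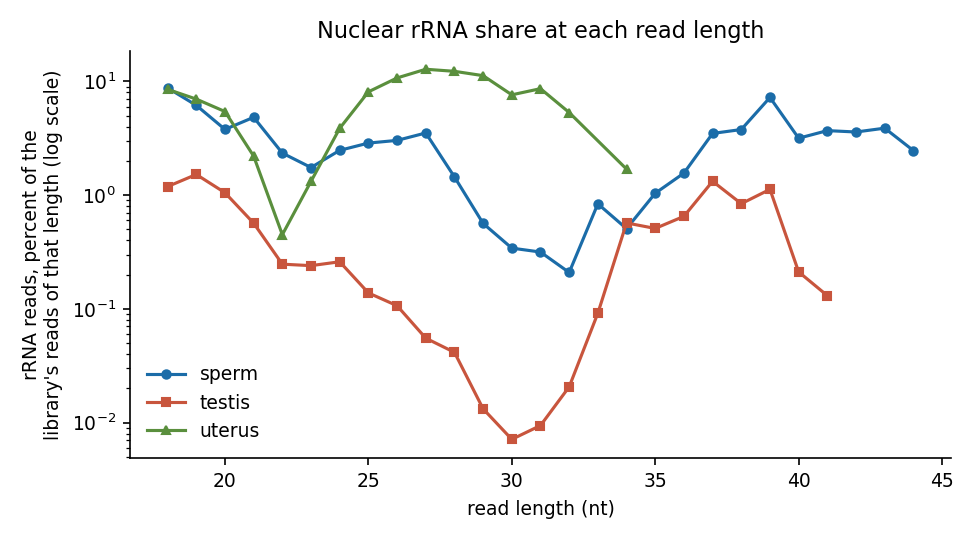
Nuclear rRNA reads as percent of all reads of the same length in each library (log axis) against read length in nt; lengths with no rRNA read are not drawn. The lowest share lies at 32 nt in sperm, 30 nt in testis and 22 nt in uterus.

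The first bases of the fragments were spread over all 4 letters, unlike those of each library as a whole. Over all reads, T was the first base of 54.2% in sperm, 90.9% in testis and 74.5% in uterus. Among nuclear rRNA reads, T came first in 24.4%, 30.6% and 18.8%, and G in 28.5%, 28.3% and 29.3%. The 18S part of Gm42418 holds 22.0% T and 29.7% G, and Gm42418 reads began with T in 24.5% in sperm, 25.5% in testis and 18.5% in uterus.

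5S stood apart in testis, where 56.4% of reads began with T, against 24.3% in sperm and 31.1% in uterus. The 5S RNA itself holds 21.01% T. In sperm, G led with 50.1% of 5S reads, and base 1 of 5S is a G. Of distinct testis 5S sequences 48.5% began with T. Among testis rRNA reads of 26 to 31 nt, 38.2% began with T, beside 91.8% of all testis reads of that length.

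On the 5S RNA the ends of the fragments differed between libraries. In sperm, 32.1% of the 5S reads placed on Gm22109 began exactly at base 1 (12574 of 39197). In testis the share was 30.0% (333 of 1109) and in uterus 1.51% (80 of 5294). Reads that ended within the last 3 bases were 18% in sperm, 0.992% in testis and 2.30% in uterus. At the last base itself the shares were 6.65%, 0.721% and 1.76%. By reads, sperm 5S fragments thus included both ends of the RNA, and uterus fragments few of either. Testis fragments held the 5′ end far more often than the 3′ end, though most were centred in the middle of the RNA. By distinct sequences the libraries lay closer together. Of these, 4.68% in sperm, 8.33% in testis and 3.05% in uterus began within bases 1 to 3, so that testis and sperm changed places, and 5.01%, 3.33% and 3.22% ended within the last 3 bases.

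In the middle of 5S the libraries stood in another order. Fragments centred on bases 41 to 80 were 34.97% in sperm, 62.0% in testis and 70.6% in uterus. Those centred on bases 1 to 40 were 36.9%, 31.7% and 10.2%, and on bases 81 to 119 28.1%, 6.22% and 19.3%.

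Within the middle of 5S the leading ends also differed. In testis the fragment of bases 38 to 63 had 114 reads (4.79 RPM), against 30 in sperm (1.91 RPM) and 3 in uterus (0.189 RPM). The uterus fragment of bases 37 to 58 had 120 reads there (7.56 RPM) and 1 each in sperm and testis. Base 35 began 1849 sperm and 192 testis reads. Uterus starts lay at bases 35, 37 and 38 (360, 615 and 375 reads) and its ends at bases 56, 58 and 59 (376, 434 and 315 reads), with no single dominant pair.

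**Figure D4:**
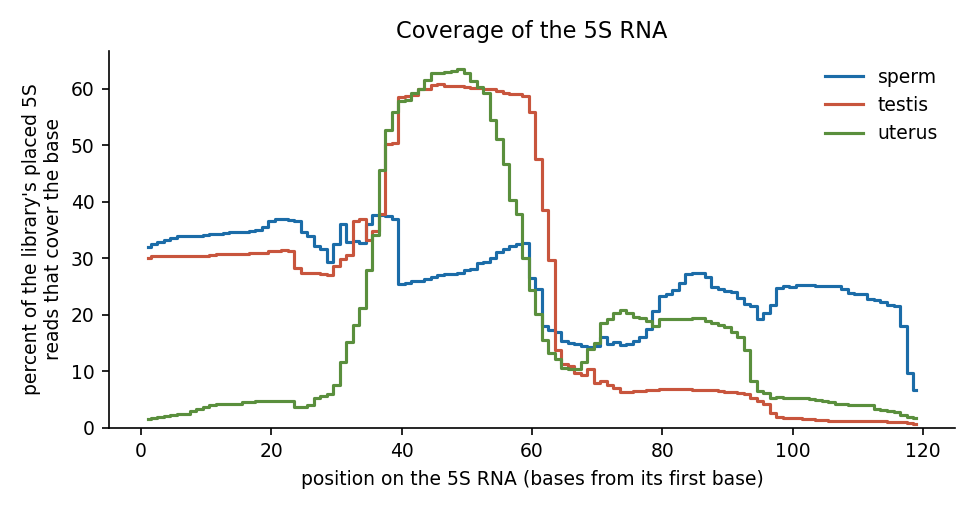
Percent of each library's placed 5S reads that cover each base of the 5S RNA, counted in bases from its first base. Sperm coverage extends to the 3′ end, testis coverage drops after base 63, and uterus coverage lies mainly in the middle.

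On the 18S part of Gm42418, the leading ends held a larger share of fragments in sperm than in testis and uterus. The 10 most used start positions held 29.4% of sperm reads, 14.5% of testis reads and 13.3% of uterus reads. Sperm starts led at base 1774 (8360 reads, 6.31%), base 1385 (5086) and base 898 (3913). Sperm 3′ ends led at base 918 (6822 reads, 5.15%) and base 1800 (4993). The fragment of bases 1774 to 1800 had 3679 reads in sperm (234 RPM), 0 in testis and 29 in uterus (1.83 RPM).

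Testis and uterus had leading ends that were less used in sperm. The start at base 1764 had 118 reads in testis (1.96%), 4618 in uterus and 474 in sperm. Uterus starts led at base 983, with 6829 reads (2.15%), against 80 in testis and 47 in sperm. The testis fragment of bases 1025 to 1050 had 78 reads there (3.28 RPM), 3 in sperm and 91 in uterus (5.73 RPM).

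The mature 3′ end of 18S, base 1849, was the most used 3′ end in both testis and uterus. It ended 226 reads in testis (3.75% of reads in the 18S part) and 10657 in uterus (3.35%), but 133 in sperm (0.100%). Of distinct sequences in the 18S part, 0.276% in sperm, 0.513% in testis and 0.303% in uterus ended within the last 3 bases, so that sperm and uterus differed little in this measure. This end is made late in ribosome assembly, when a nuclease in the cytoplasm cuts the small subunit precursor. The uterus fragment of bases 1825 to 1849 had 3370 reads (212 RPM), against 34 in testis (1.43 RPM) and 7 in sperm (0.446 RPM). The fragment that is 1 base longer had 2991 reads in uterus (188 RPM), 73 in testis (3.07 RPM) and 6 in sperm (0.382 RPM).

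Reads over the cut between 18S and ITS1 were few in every library. The junction was crossed by 352 reads in sperm (22.4 RPM), 15 in testis (0.631 RPM) and 1179 in uterus (74.3 RPM). In sperm more reads crossed the junction than ended at base 1849, while in testis and uterus far more ended there. Sperm had 380 reads in ITS1 itself, testis 34 and uterus 1497. Per base the 18S part held 165 times more reads than ITS1 in sperm, 83.7 times more in testis and 100.2 times more in uterus. These ratios use exact matches, which lose 18S reads, most of all in sperm, as described further on.

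The external spacer gene Gm26917 was lower still per base. It had 921 reads in sperm (58.7 RPM), 77 in testis (3.24 RPM) and 6019 in uterus (379 RPM), which per base was 385, 210 and 141 times below the 18S part. Per 1000000 reads uterus was 6.46 times higher than sperm (6.03 to 6.93) and sperm 18.1 times higher than testis (14.4 to 23.2). The sperm to testis ratio fell to 1.10 (0.871 to 1.41) with TMM factors and turned to 0.516 with DESeq2 size factors. Sperm over uterus turned to 1.88 (1.75 to 2.02) per structured RNA read. Its reads were scattered, and sequences read only once were 77.9% of the distinct ones for sperm, 97.3% for testis and 62.9% for uterus. The leading 3′ end in uterus was base 2895 of the gene, with 225 reads (3.74%) against 0 in sperm and testis, and in sperm the leading start was base 2868, with 56 reads (6.08%).

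The annotated letters of the 18S sequence did not match those of the reads at every base. At 6 positions at least 98.4% of the covering reads of each library carried another letter. Written with the annotated letter first and the letter of the reads last, these were C180G, T1051G, T1074C, A1083G, A1106G and T1758C. At T1051G the other letter had 98280 of 98378 reads in sperm (99.9%), 801 of 807 in testis (99.3%) and 25925 of 26007 in uterus (99.7%). At T1758C it had 76619 of 76760 reads in sperm, 441 of 443 in testis and 8268 of 8291 in uterus. An exact match therefore loses fragments that cover these bases, and it loses them unequally.

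With the letters of the reads at the 6 positions, the 18S part of Gm42418 held 301721 sperm, 7290 testis and 355661 uterus reads. This was 2.28 times the exact count in sperm, 1.21 times in testis and 1.12 times in uterus. All nuclear rRNA was then 2.19% of sperm, 0.0364% of testis and 2.33% of uterus reads, and the sperm to uterus ratio moved from 0.530 to 0.939. 5S was then 11.6% of the nuclear rRNA of sperm, 13.7% of that of testis and 1.47% of that of uterus, so the order of sperm and testis in 5S share turned. The count of 5S reads was not touched by this choice. Both the positions and this count were chosen after the data were seen.

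The leading sperm fragments changed as well. Along the whole 18S strand with ITS1, 349497 reads matched in sperm, 9295 in testis and 441114 in uterus, including bases 1 to 605 that no member gene holds. Of these, 49.7% for sperm, 17.7% for testis and 9.92% for uterus covered at least 1 of the 6 positions. Sperm reads began most often at base 1035 (29756 reads, 8.51%) and base 1749 (29368 reads, 8.40%). In testis these bases began 0.635% and 0.215% of reads, and in uterus 0.473% and 0.0496%. The sperm fragment of bases 1035 to 1063 had 8723 reads there (556 RPM), 9 in testis (0.378 RPM) and 13 in uterus (0.819 RPM).

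Sperm 18S reads were thus gathered in a few stretches. Starts within bases 1001 to 1100 were 27.7% of sperm, 11.9% of testis and 8.16% of uterus reads. Starts within bases 1701 to 1800 were 24.8%, 12.8% and 8.74%. Within bases 1301 to 1400 the shares were 12.5%, 8.61% and 7.30%. The stretch of bases 901 to 1000 went the other way, with 4.16% for sperm, 12.3% for testis and 12.8% for uterus.

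**Figure D5:**
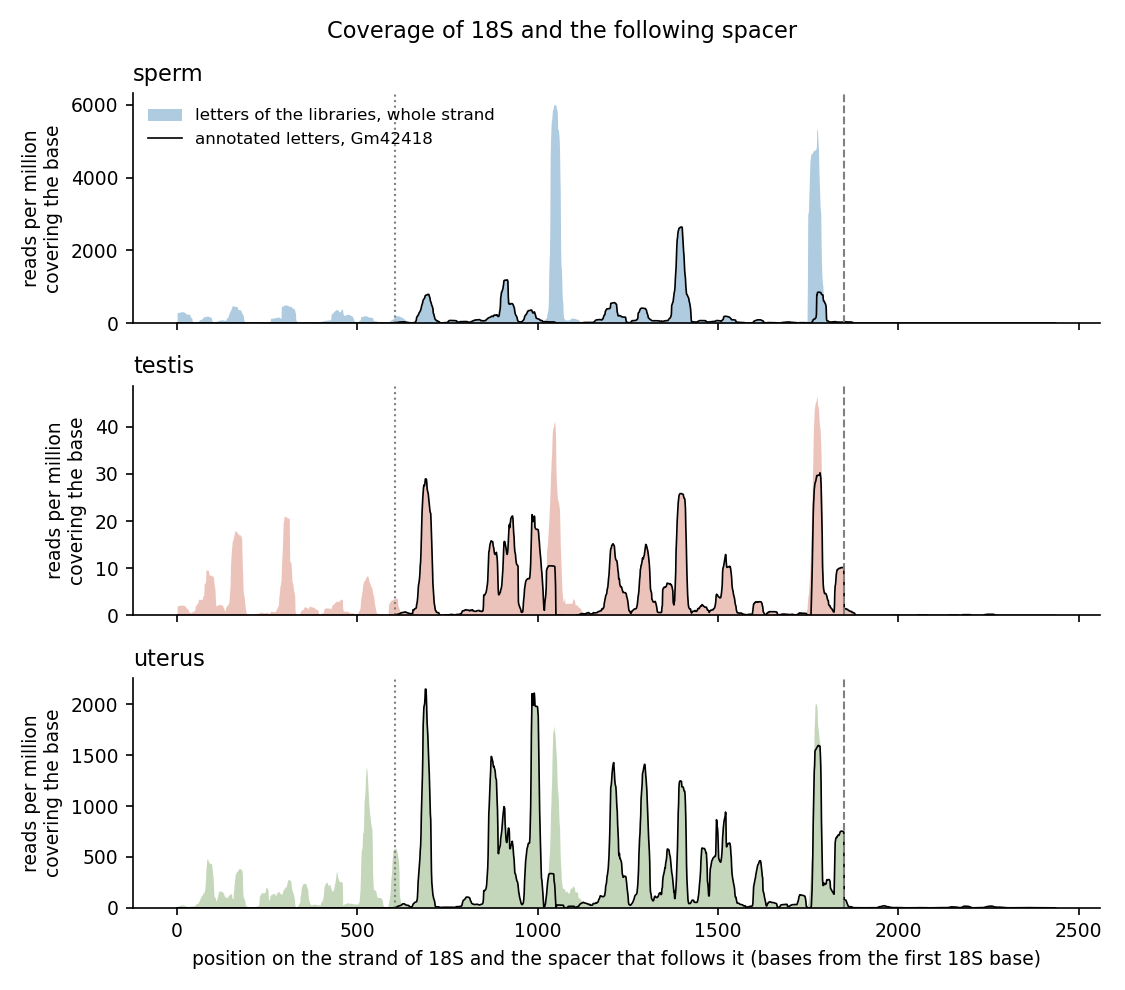
Reads per 1000000 reads that cover each base of 18S and the spacer that follows, for sperm, testis and uterus, each with its own linear axis; the filled area uses the letters of the reads over the whole strand and the black line the annotated letters of Gm42418. The dotted line marks the start of Gm42418 and the dashed line the end of 18S; the tallest sperm peaks, which start at bases 1035 and 1749, are far lower in the black line.

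A base was called mixed where each library had at least 50 covering reads and no letter reached 90% in any of them. Of the 2436 bases examined, a single one met this limit. Median testis coverage of 18S was 61 reads, close to the limit, so other mixed bases could have been missed. At base 1255, annotated T, sperm reads held 20.0% T, 75.2% C, 3.27% A and 1.52% G, over 855 reads. Testis reads held 38.6% T, 42.1% C, 12.3% G and 7.02% A, over 57 reads. Uterus reads held 48.1% T, 34.8% C, 11.6% G and 5.47% A, over 1005 reads. All 4 letters were thus read in all libraries, with C ahead of T in sperm and T ahead of C in uterus. The testis reads were too few to order C and T. The base stands in capitals in its context.
18S bases 1246 to 1264: taatttgacTcaacacggg

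Small-subunit rRNA of animals is known to carry a heavily modified uridine in this loop, and modified bases can be misread by reverse transcriptase; whether this base holds that modification in these RNAs was not tested. Coverage was lower at this base than 10 bases before it, where 2330 reads covered 18S in sperm, 154 in testis and 5605 in uterus. At 10 bases after it, coverage was 1291 for sperm, 29 for testis and 1104 for uterus. Testis coverage was thus lower there than at base 1255, and uterus coverage was little higher, so the drop was not confined to this base. In uterus 505 reads ended within the 3 bases before base 1255, in sperm 105 and in testis 28. Starts within the 3 bases after it numbered 174 for uterus, 163 for sperm and 4 for testis. Starts after the base outnumbered ends before it for sperm, but not for testis or uterus. Over the whole 18S, fewer reads than at base 1255 covered 33.7% of bases in sperm, 48.8% in testis and 30.8% in uterus.

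The 5.8S genes of the annotation drew almost no exact reads: 5 in sperm (0.319 RPM), 0 in testis, where the floor of 3 counts is 0.126 RPM and the exact Poisson interval reaches 0.155 RPM, and 22 in uterus (1.39 RPM). With 1 substitution 926 reads matched in sperm, 277 in testis and 6142 in uterus, so these values say little about the amount of 5.8S fragments. For 5S the reads with 1 substitution were few beside the exact ones, numbering 2257 for sperm, 100 for testis and 318 for uterus.

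Reads antisense to 18S, which match CT010467.1, were at the edge of detection. There were 30 in sperm (1.91 RPM, 1.29 to 2.73, exact Poisson interval), 53 in testis (2.23 RPM, 1.67 to 2.91) and 0 in uterus, where the floor of 3 counts is 0.189 RPM and the exact interval reaches 0.232 RPM. The sperm and testis levels had overlapping intervals. In testis 40 of the 53 reads were of 26 to 31 nt and 25 began with T, and in sperm 18 of 30 and 17 did. No sequence had more than 4 reads. AY036118 held 11 of the sperm and 17 of the testis reads, all of which also matched CT010467.1.

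Many testis fragments were also found in the deeper rRNA pools of the other libraries. Of distinct testis rRNA sequences, 70.1% occurred in sperm and 63.2% in uterus. Of distinct sperm sequences 15.2% occurred in testis and 37.9% in uterus, and of uterus sequences 13.0% and 35.9% occurred in testis and sperm. By reads, 30.2% of sperm rRNA reads had a sequence seen in testis and 46.0% one seen in uterus. For 5S, 8.79% of distinct sperm sequences occurred in testis and 23.9% in uterus.

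Other RNAs of the ribosome and of its assembly did not all follow the nuclear rRNA. The mitochondrial rRNAs, mt-Rnr1 and mt-Rnr2, summed to 6344 RPM in sperm, 14.9 in testis and 333 in uterus. In RPM they were thus higher in sperm than in uterus, as 5S was (sperm to uterus ratio 7.42). Gm42418 (0.420) and the exact nuclear rRNA reads as a whole (0.530) went the other way. For nuclear rRNA as a whole the ratio was 0.939 with the letters of the reads and 6.44 per structured RNA read. mt-Rnr2, the large-subunit RNA of the mitochondrial ribosome, had 5825 of the 6344 RPM in sperm. The 10 measured RNAs of rRNA processing (of 13 listed) summed to 62.6 RPM in sperm, 10.9 in testis and 60.1 in uterus, with reads of several genes of a list counted once here and below. Among them Snord118, the U8 RNA needed for the large-subunit RNAs, was lowest in sperm, with 6.25 RPM against 9.84 in testis and 28.6 in uterus. Snora73a, a small nucleolar RNA, had 23.0 RPM in sperm, 0 in testis and 0.945 in uterus. Without Snora73a the rRNA processing list summed to 39.9, 10.9 and 59.8 RPM in sperm, testis and uterus. Without Snord118 it summed to 56.3, 1.09 and 31.5 RPM, so single genes set much of these sums. The Y, vault, 7SK and 7SL RNAs summed to 971 RPM in sperm, 22.4 in testis and 388 in uterus; Rn7s1 and Rn7s2, the 7SL genes, had the same reads.

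Hairpin reads of cell type markers also moved between the libraries. The 5 epithelial microRNAs summed to 2515 RPM in sperm, 1.39 in testis and 397 in uterus, Mir200c alone having 2205 RPM in sperm, 0.126 in testis and 66.5 in uterus. Without Mir200c the sums were 309, 1.26 and 330 RPM, so the excess of sperm over uterus in this list rests on Mir200c. Mir200a went the other way, with 66.8 RPM in sperm and 214 in uterus. The 5 germ cell and gonad microRNAs summed to 2118, 3768 and 355 RPM, Mir34c having 1105 RPM in sperm, 3524 in testis and 338 in uterus. Within this list Mir202 had 0.191 RPM in sperm, 112 in testis and 0 in uterus, while Mir184 was highest in sperm, with 960 RPM against 23.4 in testis and 6.80 in uterus. The 6 muscle microRNA genes, of which Mir1a-1 and Mir1a-2 share nearly all their reads, as do Mir133a-1 and Mir133a-2, summed to 1326, 142 and 47909 RPM, and the 5 leukocyte microRNAs to 99.9, 2.40 and 201. Without Mir143, which had 1177 RPM in sperm, the muscle sums were 149, 103 and 39160 RPM. Without Mir142 the leukocyte sums were 74.2, 1.39 and 61.1 RPM, so the excess of uterus over sperm in that list rests on Mir142. The erythroid pair summed to 5.35, 1.85 and 81.002 RPM, and Mir126a, of endothelium, had 10.6, 0.252 and 33.1 RPM. In the erythroid pair Mir451a had 1.85, 1.81 and 75.8 RPM, and Mir144 had 3.51, 0.042 and 5.17 RPM. Most of the uterus sum thus came from Mir451a, and the excess of sperm over testis from Mir144. The part of these other cell types in the rRNA fragments of each library was not tested.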

How the data were processed

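Small RNAs of CD1 sperm, testis and uterus were sequenced, 1 library each. The deposited tables give each distinct read sequence with its count, whole numbers that the authors had not normalized as far as the values show. Genome build mm9 is named in the submitters' processing notes. Trimming, size selection and aligner: not given in the sources used here. Read lengths ran from 18 to 44 nt, at depths of 15690722 (sperm), 23783785 (testis) and 15876066 (uterus). A line without a sequence at the end of the sperm and testis tables was left out. Groups follow the source in the labels.

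Reads were matched in sense and over their whole length to transcripts of GENCODE M21 (GRCm38), whose coordinates are printed and were not lifted to mm9. Unnamed rRNA genes were typed as 5S or 5.8S by shared 12-mers. Each read was counted once per type and per list, and in counts of genes once for each gene it matches. Shares have exact Clopper-Pearson 95% intervals, RPM exact Poisson and ratios conditional exact binomial intervals. A ratio against 0 uses 3 counts. With 1 library per group no test was made. Structured RNA genes were compared where the higher library had at least 100 reads. A base of 18S was taken to carry another letter where at least 90% of 10 or more covering reads did so in all 3 libraries.

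Named items are the 5 leading sequences and 3 leading start and end positions of each type and library, the rRNA genes with reads of their own, and the comparison and marker lists. Some leading fragments of 5S and 18S are not reported here. Members and lists were chosen with earlier results of these data known. Alternatives were distinct sequences, leaving out sequences of a single read, reads with 1 substitution, reads without another gene's match, length classes, exact ends, other denominators, TMM factors (edgeR 4.0.16) and size factors (DESeq2 1.42.0). The letters of the libraries, the whole 18S strand, the other denominators for single types, structured RNA reads as denominator for counts of genes, and lists without 1 gene were added after the data were seen. On simulated data, 100% of 2400 exact reads and 100% of 2387 reads with 1 substitution were assigned to their type. Of simulated 8-fold changes the 4-fold rule called all 90 of sperm and testis, 88 of sperm and uterus and 71 of uterus and testis, and 0 of 604, 664 and 391 unchanged genes. The simulated counts held Poisson noise only, and the simulated reads were cut from the same references, so such recovery was built in. It does not measure error between libraries or animals. Python 3.11.15 with scipy 1.17.1 and R 4.3.3 were used.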

Additional observations from a re-analysis of the deposited data

Results flagged for a closer look

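Some rRNA signal lay outside the member genes or outside an exact match. On bases 1 to 605 of the 18S strand, which no member gene holds in sense, sperm had 39445 reads, testis 1487 and uterus 67633. Reads with 1 substitution against a member gene numbered 178803 for sperm, more than the exact ones, 2120 for testis and 64785 for uterus. Of these, 93.4%, 55.7% and 55.4% differed at a position of 18S given in the report. Reads with 1 substitution against 5.8S numbered 926 for sperm, 277 for testis and 6142 for uterus. There are no control libraries to set these values against.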

How the results depend on the processing

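The share of nuclear rRNA reads moved beyond its counting interval under every alternative tried. Testis was lowest in all of them, though with DESeq2 size factors the counting interval of sperm over testis included 1 (0.993 to 1.04). Shares are given in percent for sperm, testis and uterus, and ratios for sperm over testis, sperm over uterus and uterus over testis. As distinct sequences, the shares were 0.961, 0.105 and 2.51 and the ratios 9.15, 0.382 and 23.9. Without sequences of a single read, the shares were 1.15, 0.0263 and 2.12 and the ratios 43.7, 0.542 and 80.5. With reads of 1 substitution, the shares were 2.25, 0.0400 and 2.50 and the ratios 56.2, 0.8996 and 62.5. Without reads that match another gene, the shares were 0.975, 0.0281 and 2.06 and the ratios 34.7, 0.472 and 73.5. Among reads of 18 to 24 nt, the shares were 3.07, 0.320 and 1.53 and the ratios 9.58, 2.00 and 4.78. Among reads of 25 to 28 nt, the shares were 2.52, 0.0672 and 10.3 and the ratios 37.5, 0.244 and 154. Among reads of 29 to 34 nt, the shares were 0.372, 0.0138 and 10.3 and the ratios 27.0, 0.0362 and 746. With the letters of the libraries at 6 positions of 18S, added after the data were seen, the shares were 2.19, 0.0364 and 2.33 and the ratios 60.1, 0.939 and 64.0. With the whole 18S in those letters, likewise added, the shares were 2.49, 0.0446 and 2.85 and the ratios 55.8, 0.873 and 63.9. Per reads that match a structured RNA gene the ratios were 7.15, 6.44 and 1.11, they were 2.16, 0.250 and 8.66 by TMM, and 1.02, 0.100 and 10.1 by DESeq2 size factors. Sperm over uterus turned above 1 among reads of 18 to 24 nt and per structured RNA read. By type, denominators added after the data were seen turned the sperm to testis ratio to 0.946 for Gm42418 and 0.516 for Gm26917 with DESeq2 size factors. Per structured RNA read the sperm to uterus ratio turned to 5.11 for Gm42418 and 1.88 for Gm26917, and the uterus to testis ratio of 5S to 0.114, which was 0.887 with TMM factors.

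The 5S share of nuclear rRNA, in percent for sperm, testis and uterus, was 14.7, 8.41 and 5.65 by distinct sequences, 14.5, 7.58 and 1.85 among reads of 18 to 24 nt and 11.6, 13.7 and 1.47 with the letters of the libraries. Placed 5S reads that began within bases 1 to 3 were 32.9, 30.5 and 1.83 percent by reads, 4.68, 8.33 and 3.05 by distinct sequences and 32.1, 30.0 and 1.51 at base 1 alone. 18S reads that ended within the last 3 bases were 0.112, 3.75 and 3.38 percent by reads and 0.276, 0.513 and 0.303 by distinct sequences, so the difference of sperm from the other libraries at this end rests on abundant sequences. A first T was found in 23.8, 24.7 and 22.9 percent of distinct sequences. Structured RNA genes at least 4-fold higher in one library and in the other numbered 554 and 63 for sperm and testis, 398 and 178 for sperm and uterus, 339 and 99 for uterus and testis. With the minimum of 100 reads lowered to more than 3 reads, they numbered 947 and 78 for sperm and testis, 573 and 295 for sperm and uterus, 804 and 136 for uterus and testis. With TMM factors they numbered 312 and 176 for sperm and testis, 321 and 213 for sperm and uterus, 209 and 132 for uterus and testis, and with DESeq2 size factors 247 and 219 for sperm and testis, 262 and 253 for sperm and uterus, 219 and 130 for uterus and testis. Per structured RNA read, added after the data were seen, they numbered 434 and 128 for sperm and testis, 601 and 80 for sperm and uterus, 47 and 227 for uterus and testis. No paired analysis was possible because each group has 1 library. Leaving out a replicate was not possible for the same reason. The causes of these shifts were not tested.

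Limits are as follows. Mature 28S and bases 1 to 605 of 18S are not in the member genes, and 5.8S only as copies that the reads rarely match exactly, so amounts are lower bounds for rRNA as a whole. An exact match to a diverged 18S copy lowers sperm most. Uterus has few reads above 28 nt, so longer fragments there could be seen only in small number. Testis has the fewest rRNA reads, so its positions carry the widest counting error.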
